A study of Mus musculus with 42 samples.

Results

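The 37 genes described here encode the machinery that takes a cell from G1 into S phase and copies its DNA. They were chosen by gene name, with earlier results of these data known. Among them are cyclins and kinases of the G1/S transition, E2F regulators, and origin licensing and helicase proteins. The others are polymerases and their clamp, enzymes that join Okazaki fragments or supply nucleotides, and Uhrf1. Of the 37, 16 appeared in at least 1 of 4 RNA-seq tables that together hold 2828 distinct genes, and 21 appeared in none. Each table compares CD4 T cells with a conditional knockout (cKO) of Trmt61a, which encodes the catalytic subunit of a tRNA m1A methyltransferase, with wild-type (WT) cells.

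Mice of both genotypes were C57BL/6 and 8 weeks old, and naive CD4 T cells were taken from the spleen with an isolation kit. Cells were compared before stimulation (0 h) and 3, 6 and 48 h after stimulation by plate-bound anti-CD3 at 5 µg/ml with anti-CD28 at 2 µg/ml. Each genotype and time had 2 libraries, 16 of the 42 samples in the series. The labels of these samples do not name the promoter that drove Cre. They also do not say whether the libraries of a group came from separate animals, so each p-value reflects only how much these samples vary, and that variation could be technical. RNA was measured in bulk, so fewer cells in a given state and less RNA per cell cannot be told apart.

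A table holds only genes that the authors' test put under an unadjusted p of 0.05, which are called listed below. A gene that is not listed has no value, and nothing is known here of its level or of the direction of any difference. Within each library all values are whole multiples of 1 step, as read counts divided by 1 factor per library would be, and they are called scaled counts below. A gene was called when its adjusted p in the authors' deposited table was under 0.05. The depth of the whole libraries is unknown. If that step is worth 1 read, the listed genes alone held 3380554 to 4482346 reads per library at 48 h and 1784474 to 1940866 at 3 h, but at 48 h too few low values were present to establish this. Trmt61a (ENSMUSG00000060950) was at 22.8 and 60.6 in the 2 cKO libraries of 48 h against 955 and 983 in the WT libraries, and at 136 and 98.8 against 1148 and 1133 at 3 h. Some libraries stood apart in genes of other tissues. At 3 h, 25 of 34 pancreatic acinar genes were listed, all higher in cKO, with summed scaled counts of 1728 and 11509 in cKO and 87.0 and 201 in WT. At the same time 16 of 23 submandibular gland genes were listed, all lower in cKO, with sums of 35.2 and 41.0 in cKO and 11177 and 929 in WT. At 6 h 21 acinar genes were listed, all higher in cKO, and 15 submandibular genes, all lower. At 0 h 1 acinar gene was listed as higher and 10 submandibular genes as lower, 2 of them called. The submandibular sums at 0 h were 145 and 104 in cKO and 3213 and 154 in WT. At 48 h no acinar gene was listed and 1 submandibular gene was, at 15.9 and 55.2 in cKO and 4.36 and 7.39 in WT.

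Entry into S phase is set by cyclins and their kinases, which release E2F transcription factors from repression. E2F factors then drive genes for licensing, synthesis and nucleotide supply. Licensing loads the MCM helicase (Mcm2 to Mcm7) at replication origins in G1, with the help of the origin recognition complex, Cdc6 and Cdt1. Cdc45 and the GINS complex turn the loaded helicase on. Naive T cells rest outside the cycle and make most of this machinery only after stimulation through the T cell receptor.

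Because many of these genes are known E2F targets, their promoters were searched for the E2F-type motifs TTTCCCGC and TTTGGCGC and, as a second common promoter element, for CCAAT, on both strands. The window ran from 250 bases before to 50 bases after the start in the RefSeq promoter table of build GRCm38.p6, which held 30 of the 37 genes. An E2F-type match was present in 11 of the 30 genes (36.7%), against 486 of 27018 genes in the whole promoter table (1.80%). A CCAAT match was present in 19 of the 30 (63.3%), against 41.1% of all genes. No E2F-type match overlapped another match. In Uhrf1, a pair of CCAAT matches on opposite strands overlapped. The 13 E2F-type matches are shown with up to 11 bases on either side, read on the strand where the motif runs forward, because such matches were found in a larger share of these promoters than of all promoters. Capitals mark the motif. The first 7 matches belong to genes that were listed at 48 h.
Mcm3 (chr1:20820275-20820304, plus strand): acttcccaagtTTTCCCGCcacggaagttt
Mcm7 (chr5:138172030-138172059, plus strand): tggacaccctgTTTCCCGCggttcgaaatt
Pold1 (chr7:44548766-44548787, plus strand): gctTTTCCCGCcacaagatacg
Rfc3 (chr5:151651190-151651219, plus strand): gacagtagagtTTTCCCGCgagcgcgaaag
E2f2 (chr4:136172302-136172323, plus strand): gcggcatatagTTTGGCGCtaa
Mcm3 (chr1:20820263-20820285, minus strand): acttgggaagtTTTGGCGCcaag
Mcm5 (chr8:75109349-75109378, minus strand): aggctggacgtTTTGGCGCgaaagttcttg
The next 6 matches belong to genes that were not listed at 48 h.
Cdc6 (chr11:98908002-98908031, minus strand): accccaggcgaTTTCCCGCtctccaccggc
Cdk2 (chr10:128705173-128705202, plus strand): agctgcacaacTTTCCCGCagttcctggtt
Cdt1 (chr8:122568036-122568064, plus strand): ggaactaccttTTTGGCGCcatggcgcaa
Mcm6 (chr1:128359734-128359763, minus strand): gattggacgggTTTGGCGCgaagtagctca
Mcm6 (chr1:128359797-128359826, minus strand): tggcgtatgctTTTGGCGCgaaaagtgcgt
Pola1 (chrX:93632275-93632304, plus strand): gcgggagtgcaTTTGGCGCcctgtgatgac

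Of the 13 matches, 7 lay before the start of their window in the RefSeq promoter table and 6 at or after it. That start can differ from the gene coordinates of the authors. By the authors' coordinates the Mcm7 match lies inside the gene and the E2f2 match lies before the gene. The match in Mcm7 began 165 bases before the start, that in Mcm5 149 bases before, and those in Mcm6 at 110 and 47 bases before. The matches in Mcm3, Pold1, E2f2 and Rfc3 lay after the start or on it. When only the 150 bases before the start were searched, 5 of the 30 genes held an E2F-type match (16.7%, against 1.01% of all genes), 1 of 13 listed genes and 4 of 17 not listed. In the longer window the shares were 6 of 13 listed (46.2%) and 5 of 17 not listed (29.4%). Among other genes listed as lower at 48 h, 19 of 566 held one (3.36%). A match is a string of letters in a window, and whether a factor bound there was not tested.

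The upstream stretches of 3 genes of the MCM helicase are shown for comparison, since Mcm3 and Mcm5 were listed at 48 h and Mcm6 was not. Each is 180 bases long and ends just before the outermost annotated start of its gene. No annotated gene of the RefSeq table overlaps them. Capitals mark both kinds of match, and a match on the opposite strand reads as its reverse complement.
Mcm3 (chr1:20820313-20820492, minus strand): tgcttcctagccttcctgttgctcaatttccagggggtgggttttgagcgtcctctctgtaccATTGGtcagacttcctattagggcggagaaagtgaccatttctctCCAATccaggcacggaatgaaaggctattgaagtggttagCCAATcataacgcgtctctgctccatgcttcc
Mcm5 (chr8:75109288-75109467, plus strand): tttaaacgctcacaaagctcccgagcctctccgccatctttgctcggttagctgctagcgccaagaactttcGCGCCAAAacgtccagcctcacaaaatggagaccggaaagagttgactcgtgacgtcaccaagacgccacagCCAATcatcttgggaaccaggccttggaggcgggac
Mcm6 (chr1:128359706-128359885, minus strand): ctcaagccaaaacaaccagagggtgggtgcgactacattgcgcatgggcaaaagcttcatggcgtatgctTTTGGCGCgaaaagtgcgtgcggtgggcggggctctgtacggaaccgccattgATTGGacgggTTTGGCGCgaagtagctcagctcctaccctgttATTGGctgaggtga
In these stretches Mcm6 carried 2 E2F-type matches and Mcm5 carried 1, while those of Mcm3 lay past its start. All 3 stretches held a CCAAT match.

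The comparison at 48 h asks whether the knockout altered this machinery in cells that had been stimulated long enough to cycle. All 15 listed genes were lower in cKO under the authors' scaling, by 10.5 to 28.2% of the WT mean with a median of 15.8%, although Mcm3 and Mcm5 turned to slightly higher under a median-ratio scaling of the listed genes. The median log2 difference of the 15 was -0.25 under the authors' scaling. It was -0.09 after scaling by trimmed means of the listed genes (TMM) and -0.06 after median-ratio scaling. As most listed genes were lower, either rescaling draws their median towards 0 and cannot tell which scaling is right. Tk1, Mcm7 and Ccna2 were called by the authors' deposited table, and no gene of the 15 by limma. By the authors' deposited table, a total of 3 of 37 genes were therefore called lower (8.11%), against 1.54% of the genes behind the adjustment. Listed as lower were 15 of 37 (40.5%), against 7.33%. The 37 genes were chosen with earlier results of these data known, so these shares are a description and not a test. In none of the 15 did the 2 cKO libraries overlap the 2 WT libraries, but this held for 99.5% of all genes listed as lower, so it says little about these genes. The median log2 fold change of the 15 in the authors' deposited table was -0.25. That of all genes listed as lower was -0.31, with quartiles at -0.41 and -0.24, and that of the 495 of them within the same range of WT levels was -0.27.

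**Figure D1:**
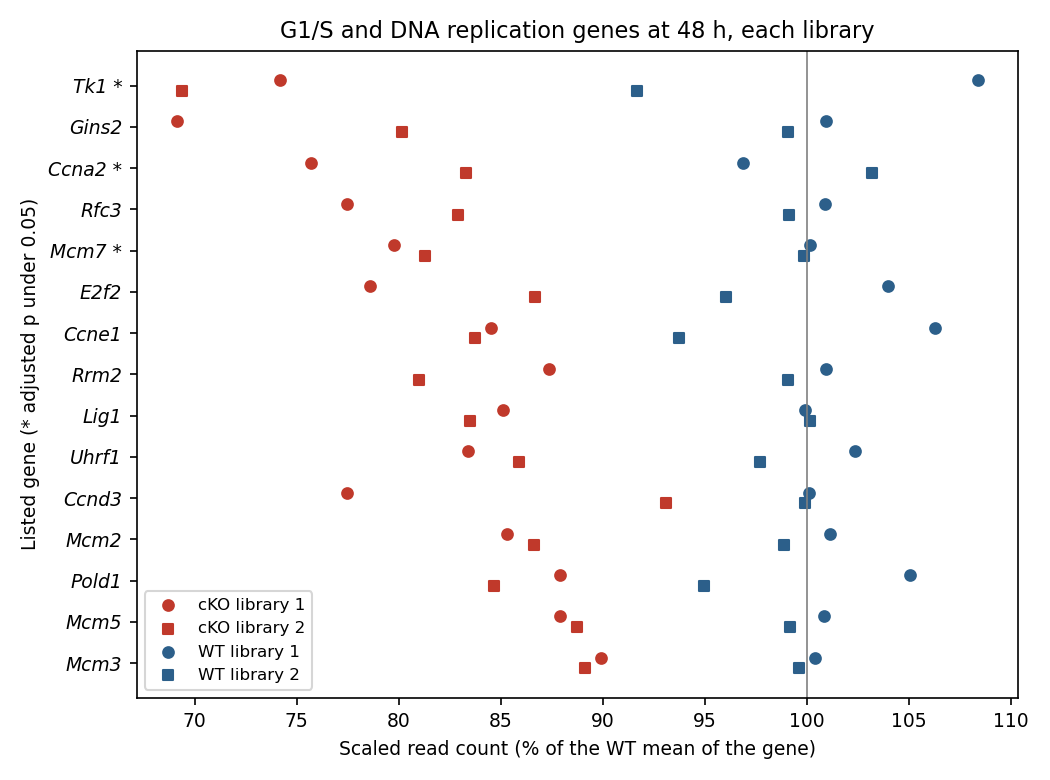
Each of the 15 listed genes at 48 h in each library, as scaled read count in percent of the WT mean of that gene (x axis), with cKO in red, WT in blue, circles for library 1, squares for library 2, and an asterisk for an adjusted p under 0.05 in the authors' deposited table. Every cKO point lies left of both WT points of its gene, and the means lie from 10.5% (Mcm3) to 28.2% (Tk1) below WT.

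Among the cyclins and kinases, 3 of 7 genes were listed at 48 h. Ccna2 (ENSMUSG00000027715, chr3:36564865-36572150 on the minus strand in the authors' table, whose build the processing notes give as mm10) encodes cyclin A, the partner of Cdk2 in S phase. Its scaled counts were 2756 and 3032 in cKO and 3526 and 3756 in WT (2894 ± 195 against 3641 ± 163, SD, n = 2). Both cKO libraries were below both WT libraries. Ccna2 fell in cKO, with a log2 fold change of -0.33 and an adjusted p of 0.0269 in the authors' deposited table. Limma did not call it, with an adjusted p of 0.167 (0.146 to 1 over the other limma fits), and its log2 difference was -0.18 with TMM and -0.14 with median-ratio scaling. Ccne1, which encodes cyclin E, the activator of Cdk2 at the G1/S boundary, was at 1227 and 1216 in cKO and at 1543 and 1360.3 in WT. Its adjusted p in the authors' deposited table was 0.382, the highest of the 15. Ccnd3, a D-type cyclin that drives Cdk4 and Cdk6 in lymphocytes, was at 4793 and 5759 in cKO and 6193 and 6182 in WT. The WT libraries were nearly equal and the cKO libraries far apart, and the adjusted p in the authors' deposited table was 0.265. Ccnd2, Ccne2, Cdk2 and Cdk4 were not listed.

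Of the E2F regulators, E2f2 was listed and E2f1 was not. E2f2, an activating member of the E2F family, was at 1709.9 and 1886 in cKO and at 2262 and 2090.1 in WT. The groups did not overlap, and the adjusted p in the authors' deposited table was 0.188.

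Of the origin licensing genes 4 of 10 were listed, a share like that of all 37, and all 4 encode subunits of the MCM helicase. Mcm7 (ENSMUSG00000029730, chr5:138164583-138172422, minus strand) was at 6831 and 6964 in cKO and at 8578 and 8554 in WT (6898 ± 94.6 against 8566 ± 17.4, SD, n = 2). The libraries of each genotype lay close together and the genotypes far apart. Mcm7 fell in cKO, with a log2 fold change of -0.31 and an adjusted p of 0.00471 in the authors' deposited table. The adjusted limma p was 0.144, or 0.136 to 1 over the other limma fits, none of which called Mcm7. Its log2 difference was -0.16 with TMM and -0.12 with median-ratio scaling. Mcm2 was at 6983 and 7092 in cKO and at 8280.1 and 8098 in WT. Mcm5 was at 8341 and 8422 in cKO and at 9568 and 9412 in WT. Mcm3 was at 9166 and 9088 in cKO and at 10236 and 10158 in WT. In each of these the libraries of a genotype were again close, and the adjusted p values in the authors' deposited table were 0.114 for Mcm2, 0.253 for Mcm5 and 0.357 for Mcm3. The other helicase subunits, Mcm4 and Mcm6, were not listed, nor were the origin recognition genes Orc1 and Orc6 or the loading factors Cdc6 and Cdt1. The subunits of the helicase form a ring with 1 copy of each, but whether the listed and unlisted subunits differed in their response was not tested, since the latter have no value.

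Helicase activation had 1 listed gene of 4. Gins2, a subunit of the GINS complex, had the lowest WT level of the 15 and was at 653 and 757 in cKO and at 954 and 936 in WT. It was 25.4% below WT, after Tk1 the second of the 15 by size, with an adjusted p of 0.0835 in the authors' deposited table. Cdc45, Gins1 and Mcm10 were not listed.

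Of the polymerases and their clamp, 2 of 7 genes were listed. Rfc3, a subunit of the complex that loads the clamp onto DNA, was at 864 and 925 in cKO and at 1126 and 1106 in WT. Pold1, the catalytic subunit of polymerase delta, was at 4074 and 3925 in cKO and at 4869 and 4399.95 in WT. The WT libraries of Pold1 differed more from each other than its cKO libraries did. The adjusted p values in the authors' deposited table were 0.201 for Rfc3 and 0.265 for Pold1. The primase and polymerase alpha genes Prim1 and Pola1, the polymerase epsilon gene Pole, the clamp gene Pcna and Rfc4 were not listed. Lig1, the ligase that seals Okazaki fragments, was at 4692 and 4605 in cKO and at 5508 and 5522 in WT, with an adjusted p of 0.0770 in the authors' deposited table. Fen1, the nuclease that trims these fragments, was not listed.

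Nucleotide supply had 2 listed genes of 4. Tk1 (ENSMUSG00000025574, chr11:117815526-117826092, minus strand) encodes the cytosolic thymidine kinase, a salvage enzyme made mainly in S phase. It was at 2070.1 and 1936 in cKO and at 3023 and 2557 in WT (2003 ± 95.0 against 2790.1 ± 330, SD, n = 2). The WT libraries were apart, but both lay well above the cKO libraries. Tk1 fell in cKO, with a log2 fold change of -0.48 and an adjusted p of 0.00209 in the authors' deposited table, the lowest of the 15. That call too was absent in every limma fit (adjusted p 0.150, and 0.136 to 1 over the others), and the log2 difference of Tk1 was -0.32 with TMM and -0.28 with median-ratio scaling. Rrm2, the S-phase subunit of ribonucleotide reductase, was at 5458 and 5058 in cKO and at 6305 and 6189 in WT, with an adjusted p of 0.0883 in the authors' deposited table. Its partner Rrm1 and the thymidylate synthase gene Tyms were not listed. Uhrf1, which guides maintenance methylation to newly copied DNA, was at 7162 and 7378 in cKO and at 8788 and 8388 in WT, with an adjusted p of 0.0717 in the authors' deposited table.

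**Figure D2:**
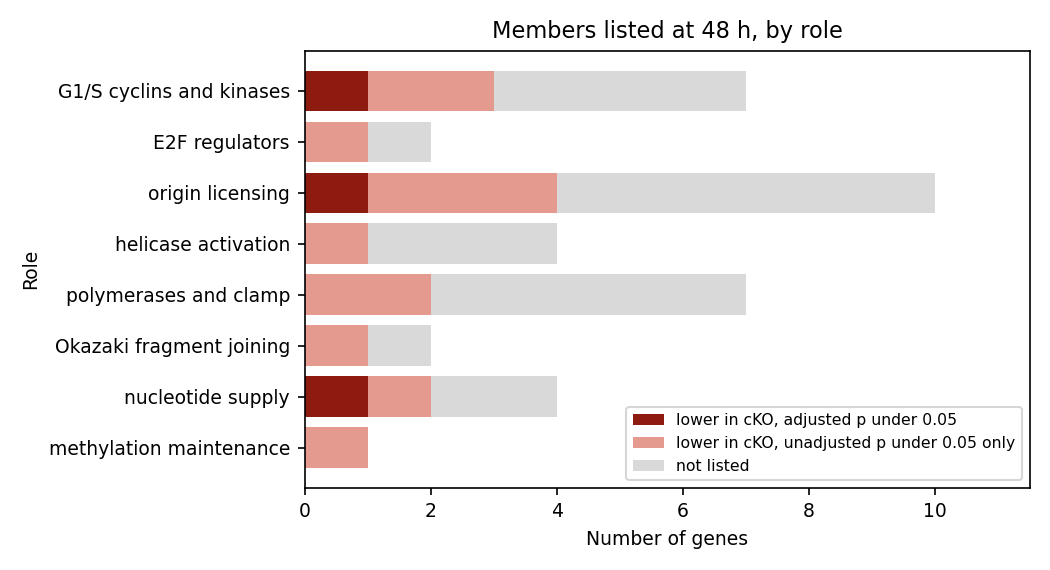
Number of the 37 genes (x axis) by role (y axis) at 48 h, divided into those lower in cKO with an adjusted p under 0.05, those lower in cKO with only an unadjusted p under 0.05 (both from the authors' deposited table), and those not listed. The called genes, 1 each, belong to the cyclins and kinases, origin licensing and nucleotide supply, and no role is listed in full except Uhrf1 alone.

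Per kilobase of gene length, the WT levels of the 15 genes at 48 h ran from 231 scaled counts for Gins2 to 2718 for Mcm3. The 3 called genes spread over this range, with WT levels per kilobase of 537 for Tk1, 892 for Ccna2 and 1935 for Mcm7. Summed over the 15 genes, scaled counts were 66780 and 68042 in cKO and 80758 and 78707 in WT. The lower of the cKO libraries was library 1 in 9 of the 15 genes, and the lower of the WT libraries was library 2 in 13. As a geometric mean over the 15, relative to the WT mean, the libraries stood at 0.814 and 0.838 in cKO and at 1.02 and 0.981 in WT.

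How firmly these differences stand was checked with limma on log2(scaled count + 1), fitted to all genes of the table and adjusted for the same number of genes. The estimates stayed near those of the authors' deposited table, at -0.47 ± 0.0957 (SE, 95% interval -0.70 to -0.24) for Tk1, -0.31 ± 0.0492 (-0.43 to -0.19) for Mcm7 and -0.33 ± 0.0732 (-0.51 to -0.16) for Ccna2. None of the 15 was called by limma, with adjusted p values of 0.144 to 0.351. All 15 had an unadjusted limma p under 0.05, as did 1104 of the 1195 genes of the table. All of these were preselected at that cut by the authors' test, so this says little about the 15. In the whole table limma called 5 genes, 3 of them lower (0.0302% of the genes behind the adjustment). The table holds more genes listed as lower (758) than as higher (437), and its limma median was -0.23; whether the scaling of the libraries plays a part in this was not tested. TMM scaling moved the limma median over the table from -0.23 to -0.07 and that of the 15 genes from -0.25 to -0.09, with all 15 still lower. Median-ratio scaling moved them to -0.04 and -0.06, with 13 of 15 lower and Mcm5 at 0.01 and Mcm3 at 0.03. The size of the difference in the 15 genes thus depended on the scaling. Both sets of factors came only from listed genes, which were preselected and mostly lower, so they draw the table median towards 0. They therefore cannot tell which scaling is right.

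**Figure D3:**
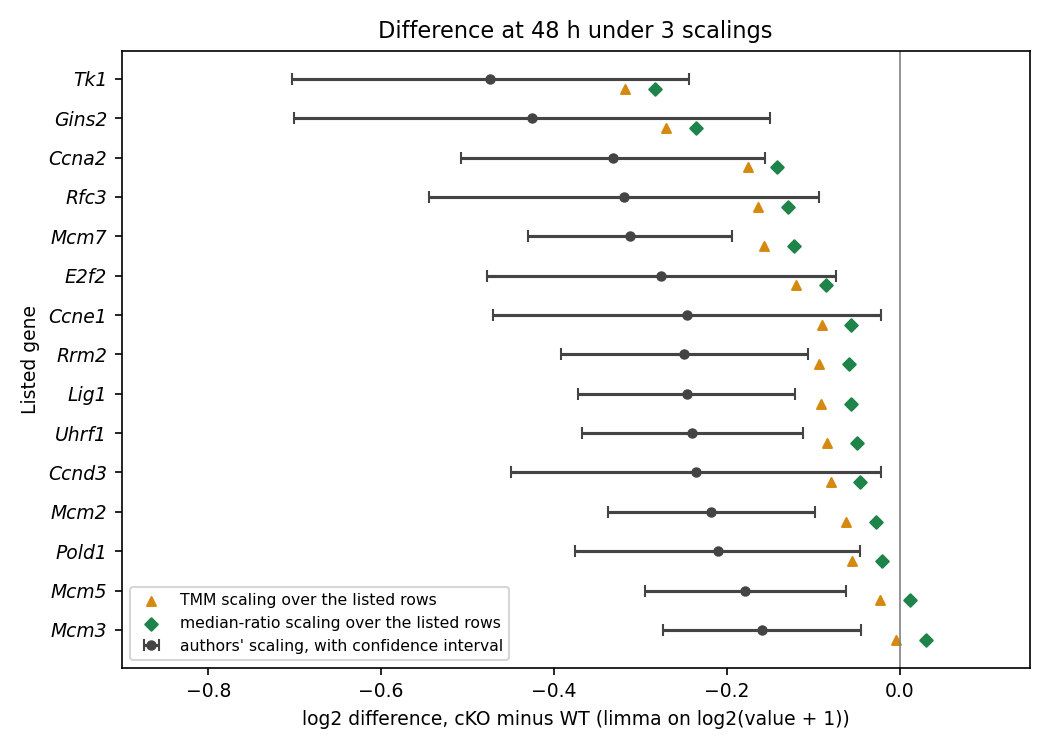
The log2 difference of cKO minus WT at 48 h for each of the 15 listed genes from limma on log2(value + 1), with the authors' scaling (circles, bars are 95% intervals), TMM scaling (triangles) and median-ratio scaling (diamonds) over the listed genes. All circles and triangles lie below 0, and the diamonds of Mcm5 and Mcm3 lie at 0.01 and 0.03.

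The neighbours of these genes in the pathway were followed in a list of 101 other G1/S and replication genes, which was written with earlier results of these data known. At 48 h 15 of the 101 were listed, 14 lower and 1 higher, and 4 were called. Of all genes behind the adjustment at 48 h, 7.33% were listed as lower and 1.54% were called lower in the authors' deposited table. As the list was written with earlier results known, these counts and shares are a description and not a test. Dut, the enzyme that keeps uracil out of DNA, was at 3214 and 3183 in cKO and at 4625 and 4457 in WT and fell, with a log2 fold change of -0.51 and an adjusted p of 2.99e-06 in the authors' deposited table. Pclaf, a factor bound to the replication clamp, was at 3579 and 3461 in cKO and at 4742 and 4724 in WT and fell, with values of -0.43 and 0.000147 in the authors' deposited table. Lmnb1, a protein of the nuclear lamina, was at 5426 and 5862 in cKO and at 6894 and 6769 in WT and fell, with values of -0.28 and 0.0374 in the authors' deposited table. The gene called higher was Cdkn1a, which encodes p21, an inhibitor of cyclin-dependent kinases. It was at 6041 and 4541 in cKO and at 3037 and 3223 in WT and rose, with a log2 fold change of 0.76 and an adjusted p of 2.56e-07 in the authors' deposited table. The cKO libraries of Cdkn1a were apart from each other, but both lay above the WT libraries. For these 4 called genes only the authors' scaling and test are given, without limma or rescaled values. Among all genes listed at 48 h limma called 5, 3 of them lower, and with TMM scaling 4, 1 of them lower.

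Of 30 mitotic and G2/M genes, 20 appeared in the table of 48 h, all lower in cKO, and 11 of them were called in the authors' deposited table. Their summed scaled counts were 55842 and 60029 in cKO and 72833 and 71523 in WT. Lower values at 48 h were thus also found outside the S-phase genes. Of all genes behind the adjustment at 48 h, 7.33% were listed as lower and 1.54% were called lower. The G2/M list too was chosen with earlier results known, so its counts are a description and not a test. Of 14 CD4 T cell markers 5 were listed at 48 h, 3 higher and 2 lower, with sums of 37187 and 36277 in cKO and 36397 and 36573 in WT, which overlap. In the authors' deposited table Cd5 was called higher (adjusted p 0.00198) and Thy1 lower (adjusted p 0.00907). Of 12 markers of CD8 T and NK cells 2 were listed, 1 higher and 1 lower, with sums of 954 and 1022 in cKO and 1488 and 1249 in WT. The lower gene, Eomes, was called in the authors' deposited table (log2 fold change -0.51, adjusted p 0.00816), and the higher one, Tcrg-C2, had an adjusted p of 1. No marker of B cells (of 16), myeloid cells (of 16) or erythroid cells and platelets (of 13) was listed at 48 h, which leaves their levels unknown. The part of cell composition in the lower values at 48 h was not tested.

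At 3 h, before cells divide, 2 of the 37 genes were listed (5.41%), both lower in cKO, and neither was called. In the authors' deposited table of 3 h 0.5% of the genes behind the adjustment were called lower and 2.89% were listed as lower. Orc1 (ENSMUSG00000028587, chr4:108579423-108614833, plus strand), the largest subunit of the origin recognition complex, was at 22.5 and 25.2 in cKO and at 52.2 and 101 in WT (23.9 ± 1.93 against 76.4 ± 34.2, SD, n = 2). Both cKO libraries were below both WT libraries, and WT library 2 stood well above WT library 1. The log2 fold change of Orc1 in the authors' deposited table was -1.68 with an adjusted p of 0.234. In limma it was -1.57 ± 0.575 (SE), and without WT library 1 or WT library 2 it was -2.03 and -1.10.

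Ccnd3 (ENSMUSG00000034165, chr17:47505051-47599691, plus strand) was the only one of the 37 genes listed at both 3 and 48 h. At 3 h it was at 877 and 752 in cKO and at 934 and 1346 in WT (814 ± 88.2 against 1140.1 ± 291, SD, n = 2). The higher cKO library lay just under the lower WT library. The log2 fold change of Ccnd3 at 3 h in the authors' deposited table was -0.49 with an adjusted p of 0.735. In limma it was -0.47 ± 0.233 (SE, 95% interval -1.06 to 0.12), and it was -0.73 without WT library 1 and -0.20 without WT library 2. At 48 h the limma value of Ccnd3 was -0.24 ± 0.0891 (SE), and it was -0.37 without cKO library 2 and -0.10 without cKO library 1, so the size at each time moved with 1 library. Neither gene overlapped between the groups at 3 h, as was true of 97.7% of genes listed as lower. Limma called none of the 1091 genes of the 3 h table, with 694 at an unadjusted p under 0.05, so the lack of a limma call says nothing particular of Orc1 or Ccnd3.

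**Figure D4:**
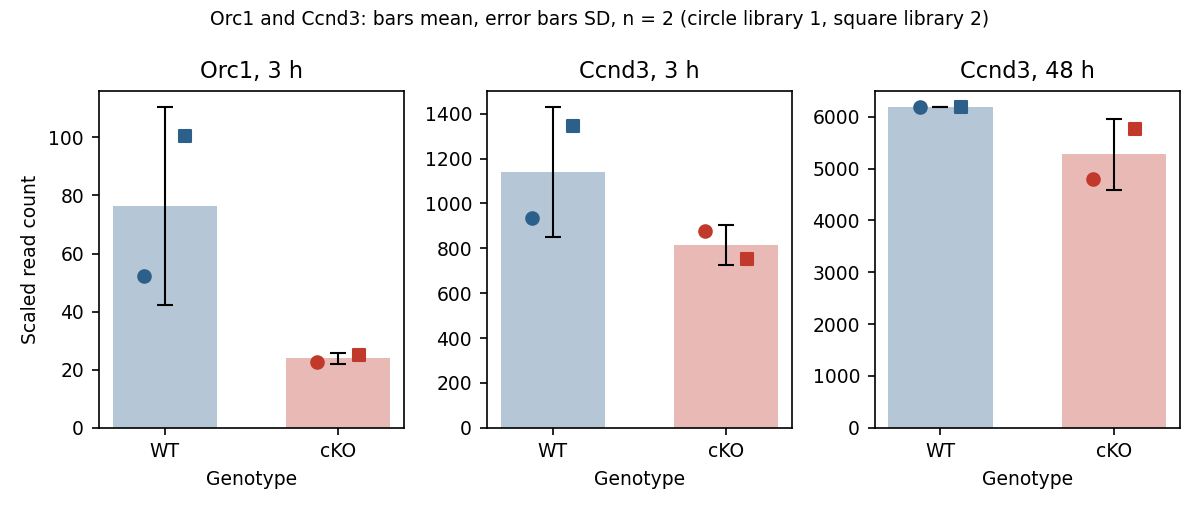
Scaled read counts (y axis, from 0) of Orc1 at 3 h and Ccnd3 at 3 and 48 h by genotype, with bars for means, error bars for SD (n = 2), circles for library 1 and squares for library 2. Orc1 is at 22.5 and 25.2 in cKO against 52.2 and 101 in WT, and the cKO points of Ccnd3 at 3 h, 877 and 752, lie close under the lower WT point of 934.

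At 3 h the libraries also differed in acinar and gland genes, as given above, and in markers of CD8 T and NK cells. Whether the transcripts of those markers came from other cells or from the CD4 T cells was not tested. Of 12 markers of CD8 T and NK cells 6 were listed, all higher in cKO, with sums of 1235 and 1227 in cKO and 517 and 395 in WT, and 2 were called in the authors' deposited table. Of 14 CD4 T cell markers 3 were listed, 2 lower and 1 higher, with sums of 25277 and 28335 in cKO and 35269 and 29765 in WT and none called. The part of these in the values of Orc1 and Ccnd3 was not tested. Of the 101 pathway genes 4 were listed at 3 h, with Atad2 and Dck lower and Cad and Umps higher, and none was called. No G2/M gene was listed at 3 h.

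At 0 h and 6 h none of the 37 genes was listed, so the tables give no value for them in resting cells or at 6 h. In the authors' deposited table of 0 h 0.0122% of the genes behind the adjustment were called and 1.57% were listed. At 6 h the shares were 0.5% called and 4.29% listed. Of the 101 pathway genes 3 were listed at 0 h, namely Cdk6, Usp37 and Fanci, all higher in cKO with none called. This direction was common at 0 h, as 297 of all 384 genes listed then were higher in cKO. In Cdk6, a partner of D-type cyclins, cKO library 2 was at 1191 and cKO library 1 at 582, against 419 and 443 in WT. Of the 30 mitotic and G2/M genes 3 were listed at 0 h, all higher in cKO with none called, and none at 6 h. Their summed scaled counts at 0 h were 1064 and 1564 in cKO and 737 and 508 in WT. At 6 h 1 pathway gene was listed, the helicase gene Blm, at 239 and 164 in cKO and 348 and 371 in WT, with an adjusted p of 0.999 in the authors' deposited table.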

How the data were processed

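RNA-seq of CD4 T cells was analysed from 4 tables of cKO against WT, with groups taken from the labels. The submitters' processing notes name HISAT2 2.0.5 and Bowtie2 2.4.1, the counter featureCounts 1.5.0-p3, the trimmer Trim Galore 0.6.6 and the build mm10. The deposited values are a signal: all values of a library are whole multiples of 1 step (tolerance 0.01), as read counts divided by 1 factor per library would be. The authors also deposited for each gene a p-value with its adjusted form and a log2 fold change, from a test not named in the sources used here. The number of genes behind the adjustment, recovered from these, was 24502, 15399, 16602 and 9940 at 0, 3, 6 and 48 h. Listed genes with an adjusted p of 1 (0, 89, 27 and 93) were left out of the shares of genes behind the adjustment that were listed, and kept in the shares without overlap.

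Means and SDs were computed per group of 2. limma 3.58.1 in R 4.3.3 was fitted to log2(value + 1) over each table that lists one of the genes, with a mean trend and Benjamini-Hochberg adjustment over the number above, all unlisted genes being taken to have larger p. As the tables hold preselected genes, its p-values rest on a selected set. TMM factors came from edgeR 4.0.16. The planned count tests were left out, because too few low values (33 to 82 in the columns of 0 and 48 h, where 100 are needed) were present to establish whole reads; at 3 h 1 column has a step too near 1, and at 6 h no gene described here is listed. The fit was tested on simulated data.

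All 37 genes are accounted for, and called genes and those listed at more than 1 time are given in full. Of the pathway list, called genes are named, with the genes listed at 0, 3 and 6 h, which were chosen after their values were seen. The members and all lists were chosen with earlier results of these data known. RiboTag-seq, m1A-seq, tRNA-seq and the WT samples of 18 h were not used here.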

Additional observations from a re-analysis of the deposited data

How the results depend on the processing

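Of the 17 gene-by-time differences, 15 kept their direction in every alternative run. The groups overlapped in none of the 17, so only a rescaling of the libraries could have reversed a direction. The other alternatives say nothing about it. Mcm3 (0.030) and Mcm5 (0.011) reversed at 48 h under median-ratio scaling without secretory and immunoglobulin genes, chosen after seeing the data. Of the 37 genes, 3 were called at 48 h. The count was 7 at an adjusted p under 0.1 (Uhrf1, Lig1, Gins2 and Rrm2 added), but the share of all genes called at that cut was not counted. It was 3 among genes with a mean of at least 100. That filter could not change the count, as the lowest WT mean of the 15 listed genes was 945. The count was 0 by limma with a pseudocount of 1 or 10, with TMM scaling or with median-ratio scaling. Limma without any 1 library also called 0, but it then rests on a lone sample assumed to vary like the other group and called 0 genes of the whole 48 h table, so this says nothing about these genes. The cause of the lost calls was not tested. At 3 h the count was 0 in every alternative run, where limma with all libraries called no gene of the table either. At 0 and 6 h no gene is listed, so no alternative could call one. The median log2 fold change of the 15 genes was -0.091 with TMM and -0.056 with median-ratio scaling, both over listed genes only, which are mostly lower. It was -0.28 to -0.23 without 1 library (-0.28 without WT library 2). The share with an E2F-type motif was 16.7% in the 150 bases before the start.

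The libraries share only a replicate number. With the replicate number as a block, limma called 0 of the 37 genes at 48 h and the median stayed at -0.25. Deviations of same-numbered libraries correlated across genes at 0.10 (1099 genes) at 48 h and at -0.04 (689 genes) at 3 h. The planned edgeR and DESeq2 fits, their fits without 1 library and their block fit were not run, because whole reads could not be established in the columns of 0 and 48 h or in 1 column of 3 h, and at 6 h no gene is listed. The limma fits with a pseudocount of 1 or 10 were planned. The limma block, the rescaled limma calls and the limma calls without 1 library were added after seeing the data. limma was not run for 0 and 6 h. The total depth is unknown.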
